A study of Mus musculus with 6 samples.

Results

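The angiopoietin-like genes were examined in the developing mouse aorta, in the segment nearest the heart and in the segment that runs down the trunk. The group comprised 5 genes, Angptl1, Angptl2, Angptl4, Angptl6 and Angptl7. They were taken from the array annotation by symbol, each through the probe set with exactly 1 gene symbol and the highest mean over all arrays. Of these, 4 were measured among 19938 genes, each by a single probe set (10518526 for Angptl7, 10350840 for Angptl1, 10450038 for Angptl4 and 10591350 for Angptl6), and Angptl2 was not analysed here. The group was chosen by the difference of Angptl7 between the segments, which was already known from these arrays, so the values of the 4 genes are a description and no test is attached to them.

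Angiopoietin-like proteins are secreted glycoproteins with a coiled-coil part and a fibrinogen-like domain. They resemble the angiopoietins in build but are not ligands of the classical kind for the endothelial receptor Tie2. Members act in separate settings, among them lipid uptake, inflammation, endothelial growth and connective tissue, and the group is known in vessels mainly for effects on endothelium.

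Ascending aorta and descending aorta were dissected from untreated wild-type C57BL/6 embryos at 13.5 days postcoitum, and total RNA of each was hybridised to Affymetrix mouse gene arrays, 3 for each segment and 6 in all. The series asked how expression follows the embryonic origin of the vessel wall, where smooth muscle of the ascending aorta is largely of neural crest origin and that of the descending aorta of mesodermal origin. The labels call the arrays biological replicates and name no embryo, litter or pool, and the segments are whole tissue, so a spread between arrays may be technical, and fewer cells of a type and less RNA per cell cannot be told apart. Values are log2 expression after the authors' RMA processing, a scale on which a difference of 1 is a doubling. Probe sets bind with different strength, so levels are set side by side between arrays and not between genes.

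The array labelled ascending aorta replicate 3 stood apart from its group. Across genes its Pearson correlation was 0.991 and 0.986 with ascending replicates 1 and 2, against 0.993 to 0.998 with the 3 descending arrays (coefficients across genes, which are not replicates). With every array in the fit, limma called 0 of 19938 genes (0.0%) at an adjusted p of 0.05, and 1852 genes (9.29%) had an unadjusted p under 0.05. A per-gene test without moderated variance also called 0. Without ascending replicate 3, 933 genes (4.68%) passed. The array was picked out from the measurements themselves, which makes p-values and standard errors (SE) without it too small. The members' values are given with and without it. Smooth muscle actin Acta2 lay between 13.6 and 13.8 on all 6 arrays. The 8 smooth muscle markers went both ways between the segments, with a median difference of -0.060 (-0.035 without ascending replicate 3). Of these, Myh11, Itga8 and Mylk lay lower in ascending aorta without overlap, by -0.53, -0.28 and -0.27, where 8.95% of all genes did. Lmod1 differed by 0.29, and by 0.54 without ascending replicate 3 (adjusted p = 0.0404 by limma).

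Angptl7 codes for a secreted protein known from the cornea and the outflow tissue of the eye, where it bears on matrix and eye pressure. Its level was 10.4, 10.6 and 7.39 in ascending aorta replicates 1, 2 and 3, against 7.29, 7.87 and 7.61 in descending aorta replicates 1, 2 and 3. Ascending replicates 1 and 2 were high, ascending replicate 3 lay inside the range of the descending arrays, and the groups therefore overlapped. The mean was 9.46 ± 1.80 in the ascending and 7.59 ± 0.29 in the descending arrays (SD, n = 3 each). The segments differed by 1.87 ± 0.77 (SE) or 3.66-fold. Among all genes this was the difference at rank 2 from the highest, which is the reason the gene was chosen. Without ascending replicate 3 the difference was 2.91 ± 0.17 (SE), or 7.51-fold, again at rank 2. The 2 high arrays stood 2.80 and 3.02 above the descending mean, and ascending replicate 3 stood -0.20 from it.

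**Figure D1:**
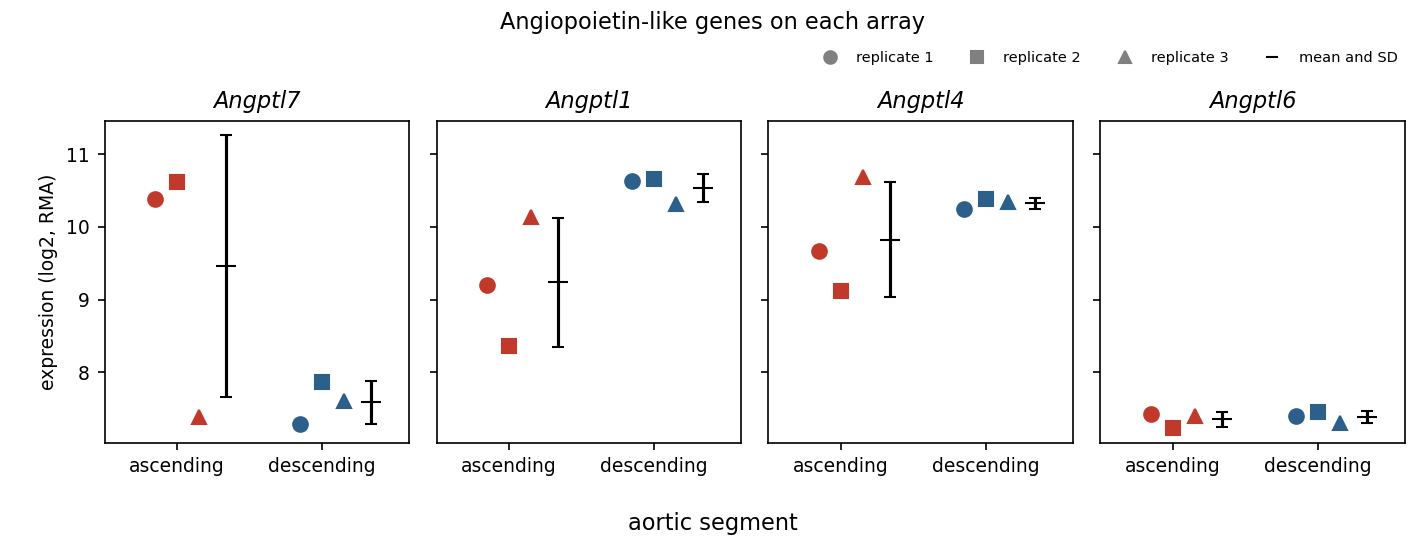
Expression (log2, RMA) of the 4 measured genes on each array, with ascending aorta in red on the left of each panel and descending aorta in blue on the right. Marker shapes are replicate numbers and the bars give the mean and SD of 3 arrays. Angptl7 is near 10.5 on 2 ascending arrays and between 7.29 and 7.87 on the other 4 arrays, while Angptl1 and Angptl4 are lowest on the same 2 ascending arrays.

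Angptl1, whose product inhibits sprouting of endothelial cells in culture, ran the other way. Its level was 9.21, 8.37 and 10.1 in ascending replicates 1, 2 and 3, against 10.6, 10.7 and 10.3 in descending replicates 1, 2 and 3. All 3 ascending arrays lay below all 3 descending arrays, and ascending replicate 3 was the closest to them. Of the 4 genes, 1 (Angptl1) had groups that did not overlap. Over all genes 14.8% did not overlap, and 8.95% did so with ascending aorta lower; nothing is read from the count, since the choice of genes used this contrast. The mean was 9.24 ± 0.89 in the ascending and 10.5 ± 0.19 in the descending arrays (SD, n = 3 each). The segments differed by -1.30 ± 0.39 (SE), which makes the level 2.46-fold higher in descending aorta. The difference was -1.75 ± 0.23 (SE) without ascending replicate 3 and -0.861 without ascending replicate 2.

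The genes at the ends of this range share a feature of position. In the RefSeq gene table of GRCm38.p6, Angptl7 on chromosome 4 lies inside the span of Mtor, the gene of the growth-controlling kinase, and on the opposite strand. Angptl1 on chromosome 1 lies inside the span of Ralgps2, an exchange factor gene for Ral GTPases, also on the opposite strand, and Angptl2 on chromosome 2 lies in the same way inside Ralgps1. Angptl6 on chromosome 9 overlaps the end of Shfl, an antiviral factor gene, and the table gives no gene overlapping Angptl4 on chromosome 17. The sources used here do not name the build behind the array's probe sets.

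The host genes were measured by probe sets of their own. Mtor was 9.58, 9.88 and 9.64 in ascending replicates 1, 2 and 3, against 9.94, 9.53 and 9.61 in descending replicates 1, 2 and 3, and the groups overlapped. Its difference was 0.0074 ± 0.13 (SE; adjusted p = 0.989 by limma), beside 1.87 for Angptl7. Ralgps2 was 8.91, 8.71 and 8.94 in ascending replicates 1, 2 and 3, against 8.99, 9.09 and 9.14 in descending replicates 1, 2 and 3. Its ascending arrays were lower without overlap, by a difference of -0.22 ± 0.091 (SE) that did not pass (adjusted p = 0.534 by limma), beside -1.30 for Angptl1. Shfl differed by -0.14 ± 0.085 (SE; adjusted p = 0.61 by limma).

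The promoters of Angptl7 and Angptl1 are shown because these genes lay furthest apart in the comparison and both start inside another gene. Each run is from RefSeq (GRCm38.p6), 250 bases before to 50 bases after the start of the gene, 5′ to 3′ on the gene's own strand, at chr4:148500413-148500712 (minus strand) for Angptl7 and chr1:156838773-156839072 (plus strand) for Angptl1. Capitals mark matches to the searched motifs.
Angptl7: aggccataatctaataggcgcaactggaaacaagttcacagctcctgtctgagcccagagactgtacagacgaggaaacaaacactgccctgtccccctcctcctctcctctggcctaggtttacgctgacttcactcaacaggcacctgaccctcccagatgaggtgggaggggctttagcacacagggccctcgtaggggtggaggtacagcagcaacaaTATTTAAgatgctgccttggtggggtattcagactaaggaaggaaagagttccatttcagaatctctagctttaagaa
Angptl1: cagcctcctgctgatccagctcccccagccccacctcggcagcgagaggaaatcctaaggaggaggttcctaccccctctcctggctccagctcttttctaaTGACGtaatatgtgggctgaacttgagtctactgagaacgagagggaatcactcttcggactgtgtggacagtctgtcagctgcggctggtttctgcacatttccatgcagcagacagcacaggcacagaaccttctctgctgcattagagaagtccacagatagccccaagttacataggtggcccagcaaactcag

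The motifs were searched on both strands as the exact letters given, so other forms of a site are not covered. In Angptl7 the capitals are a TATA-like run, TATTTAA, beginning 28 bases before the gene's start. This motif was added after the sequence had been seen, and 4.51% of 32851 promoters of the same length hold it. In Angptl1 the capitals are the core of a cyclic AMP response site, TGACG, beginning 148 bases before the start, which 20.8% of the promoters hold. Neither window held the letters of a TATA box (TATAAA, 13.6% of promoters), a GATA site (AGATAA, 11.2%), a T-box half-site (AGGTGT, 13.7%), a PPAR half-site (AGGTCA, 16.3%), a hypoxia response core (ACGTG, 19.6%), a CCAAT box (CCAAT, 37.4%) or a GC box (GGGCGG, 35.7%). The Angptl7 window held 4 CpG pairs and the Angptl1 window 6, where the median promoter held 7. The promoter of Angptl6 held no match to any of these motifs and 5 CpG pairs.

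Angptl4 codes for the inhibitor of lipoprotein lipase that fasting, PPAR ligands, glucocorticoids and low oxygen induce. Its level was 9.67, 9.13 and 10.7 in ascending replicates 1, 2 and 3, against 10.2, 10.4 and 10.3 in descending replicates 1, 2 and 3. Ascending replicates 1 and 2 were the lowest arrays and ascending replicate 3 the highest of all 6, so the groups overlapped. The mean was 9.82 ± 0.79 in the ascending and 10.3 ± 0.073 in the descending arrays (SD, n = 3 each). The segments differed by -0.50 ± 0.34 (SE). It was -0.93 ± 0.15 (SE) without ascending replicate 3, a level 1.90-fold higher in descending aorta, and -0.151 without ascending replicate 2.

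Angptl6, a circulating growth factor gene of the group that protects mice from obesity, varied little. Its level was 7.43, 7.23 and 7.40 in ascending replicates 1, 2 and 3, against 7.40, 7.46 and 7.31 in descending replicates 1, 2 and 3. The groups overlapped and the difference of -0.032 ± 0.087 (SE) was smaller than its error. Its sign turned without ascending replicate 2 (0.0287), without descending replicate 2 (0.00388) and after repeated quantile normalization (0.000779).

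Within the group, the range over the 6 arrays was 3.32 for Angptl7, 2.29 for Angptl1, 1.55 for Angptl4 and 0.23 for Angptl6, and 4.61% of all genes had a range of at least 1. Among descending arrays alone the range was 0.58 for Angptl7, 0.35 for Angptl1, 0.14 for Angptl4 and 0.15 for Angptl6. Without ascending replicate 3, 3 of the 4 genes did not overlap between the segments, 1 higher and 2 lower in ascending aorta, where 34.5% of all genes did not overlap. Nothing is read from this count, since the genes were chosen by this contrast and the array was picked from the values. All 4 genes passed a filter at the 25th percentile of mean level, and 3 passed at the 50th, which Angptl6 did not.

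**Figure D2:**
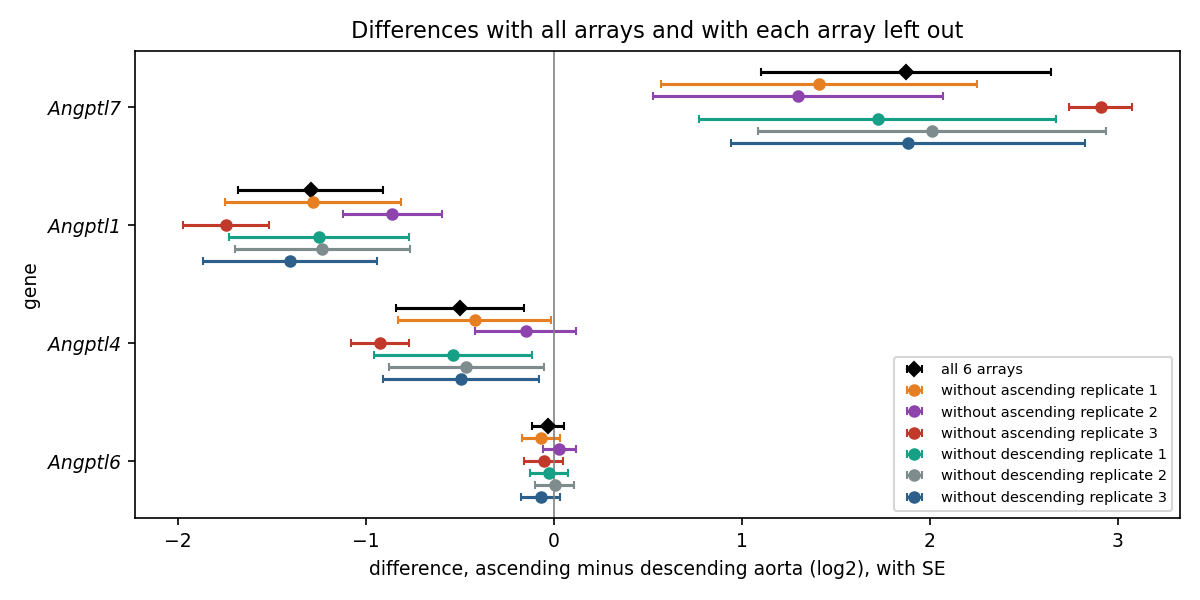
Difference between ascending and descending aorta (log2, points) with its SE (bars) for each gene, with all 6 arrays (diamonds) and with each array left out in turn (circles). Angptl7 runs from 1.30 without ascending replicate 2 to 2.91 without ascending replicate 3, and the value without ascending replicate 3 has the shortest bar of the 7 settings for that gene. That array was picked out from these values, which makes the bar without it too short.

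The genes whose profile over the 6 arrays lay closest to that of Angptl7 were found by the mean absolute difference per array, after each profile was centred on its own mean. They were Tbx20 (0.24), Dsg2 (0.24), Gabra2 (0.26), Upk1b (0.26), Dsc2 (0.27), Popdc2 (0.30), Iigp1 (0.32), Hpcal4 (0.33), Gata5 (0.35) and Kcnip4 (0.37). Tbx20 and Gata5 are transcription factors of heart development, Dsg2 and Dsc2 desmosomal cadherins, Popdc2 a membrane protein of striated muscle and Upk1b a uroplakin of mesothelium. Tbx20 was 10.5, 10.8 and 7.66 in ascending replicates 1, 2 and 3, against 7.91, 7.45 and 7.98 in descending replicates 1, 2 and 3. Like Angptl7, it was high on the same 2 ascending arrays and within the descending range on ascending replicate 3.

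The profiles closest to the mirror image of Angptl7 were those of Hoxc8 (0.11), Hoxc6 (0.17), Emcn (0.23), Fmo1 (0.23) and Arhgap20 (0.26), of which the Hox genes carry positional identity in the trunk and Emcn is an endothelial sialomucin. Hoxc8 was 6.71, 6.64 and 9.51 in ascending replicates 1, 2 and 3, against 9.67, 9.31 and 9.42 in descending replicates 1, 2 and 3. The measure takes all 6 arrays, so it mostly picks genes that separate ascending replicates 1 and 2 from the rest by as much as Angptl7 does.

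**Figure D3:**
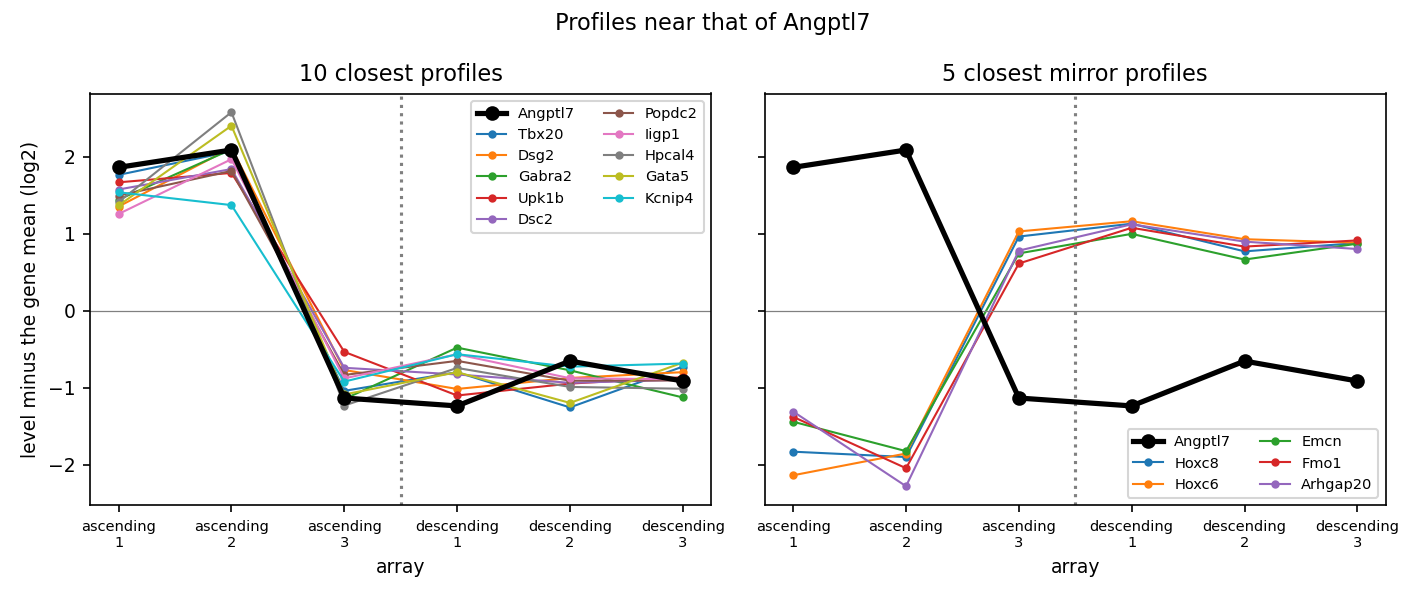
Level minus each gene's own mean (log2) on the 6 arrays, ascending on the left of the dotted line and descending on the right. The thick black line is Angptl7, the left panel adds the 10 closest profiles and the right panel the 5 closest to its mirror image. Each of these lines makes its largest step between ascending replicates 2 and 3, and not at the dotted line between the segments.

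The closest profiles differed between the members. For Angptl1 they were Il1rl2, an interleukin receptor gene (0.074), Piezo2, a mechanically gated channel gene (0.13), and Prrx1, a mesenchymal homeobox gene (0.14). For Angptl4 they were Rspo3, an enhancer of Wnt signalling (0.045), Col8a2, a short-chain collagen (0.073), and Lor, a protein of the cornified envelope (0.079). Rspo3 was 8.74, 8.18 and 9.64 in ascending replicates 1, 2 and 3, against 9.42, 9.44 and 9.41 in descending replicates 1, 2 and 3. Like Angptl4 it was low on ascending replicates 1 and 2 and highest on ascending replicate 3. The range of Angptl6 was too small to look for likeness.

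Genes of the pathways around the members were taken as 8 lists with 86 measured genes, chosen like the members with earlier results known. None of the 86 passed over all 6 arrays (lowest adjusted p = 0.53 by limma), 16 had an unadjusted p under 0.05, where 9.29% of all genes did, and 11 passed without ascending replicate 3, where 4.68% of all genes passed. In each list the median difference lay between -0.22 and 0.010, beside -0.021 over all genes, and without ascending replicate 3 between -0.36 and 0.011, beside -0.018.

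In the lipoprotein lipase system, on which Angptl4 acts, 3 of 12 genes had a higher and 9 a lower mean in ascending aorta. Over all genes 56.2% had a lower mean, and the median of the list was -0.11. Lpl, the lipase itself, was 8.51, 8.91 and 8.17 in ascending replicates 1, 2 and 3, against 8.07, 7.96 and 7.93 in descending replicates 1, 2 and 3. It lay higher in ascending aorta without overlap, by 0.54 ± 0.17 (SE), which did not pass over all 6 arrays (adjusted p = 0.53 by limma) and passed without ascending replicate 3 (0.73 ± 0.13, adjusted p = 0.0213 by limma). Lpl was highest on ascending replicates 1 and 2, the arrays on which its inhibitor Angptl4 was lowest. On ascending replicate 3 Angptl4 was the highest of all 6 arrays (10.7), yet Lpl still lay above the descending arrays. A link between these genes was not tested.

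Cd36, the fatty acid receptor, was 7.87, 7.31 and 9.16 in ascending replicates 1, 2 and 3, against 9.61, 9.21 and 9.22 in descending replicates 1, 2 and 3. It lay lower in ascending aorta without overlap, by -1.23 ± 0.42 (SE; adjusted p = 0.53 by limma), and by -1.76 without ascending replicate 3 (adjusted p = 0.00232 by limma). Gpihbp1, which carries the lipase to the capillary lumen, differed by -0.45 ± 0.17 and Pcsk5, a convertase, by -0.28 ± 0.11 (SE), and neither passed (adjusted p = 0.53 each by limma).

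Receptors and target genes of PPARs and glucocorticoids, which induce Angptl4, had a median of -0.073 over 14 genes. Fabp4, a fatty acid carrier, lay lower in ascending aorta by -0.88 ± 0.24 (SE; adjusted p = 0.53 by limma) and by -1.15 without ascending replicate 3 (adjusted p = 0.00707 by limma). Acadvl, of mitochondrial fatty acid oxidation, differed by 0.34 ± 0.11, Pparg by -0.23 ± 0.11 and Ehhadh by 0.17 ± 0.097 (SE). The 18 hypoxia genes split into 9 with a higher and 9 with a lower mean, with a median of 0.010. Bnip3, a mitophagy receptor, differed by 0.56 ± 0.16, Higd1a by 0.33 ± 0.087, P4ha1, a collagen hydroxylase subunit, by -0.23 ± 0.098 and the peptide hormone gene Adm by -0.59 ± 0.26 (SE). None of the 18 passed with or without ascending replicate 3.

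Of the angiopoietins and their receptors, Angpt2, the ligand that modulates Tie2, was 10.5, 10.7 and 11.0 in ascending replicates 1, 2 and 3, against 11.4, 11.3 and 11.4 in descending replicates 1, 2 and 3. It lay lower in ascending aorta without overlap, by -0.62 ± 0.14 (SE; adjusted p = 0.53 by limma, and adjusted p = 0.0088 without ascending replicate 3). Angpt1, the activating ligand, went the other way, by 0.39 ± 0.17 (SE; adjusted p = 0.538 by limma), and by 0.59 without ascending replicate 3 (adjusted p = 0.0208 by limma). Angpt4 and Tek, the gene of Tie2, differed by -0.11 ± 0.087 and -0.076 ± 0.082 (SE).

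Receptors reported to bind angiopoietin-like proteins had a median of -0.18 over 7 genes and 0 passed with or without ascending replicate 3. Among them the integrin subunit genes Itgb3, Itgb5 and Itga5 differed by -0.49 ± 0.13, -0.24 ± 0.14 and -0.17 ± 0.097, and the cadherin gene Cdh11 by -0.18 ± 0.088 (SE). Other genes of proteins with a fibrinogen-like domain had a median of -0.035 over 16, which was 0.011 without ascending replicate 3. In that setting 4 of the 16 passed in limma, where 4.68% of all genes passed. Of these, Angpt1 was higher and Angpt2, Tnn and Tnc were lower in ascending aorta. The tenascin genes Tnn and Tnc differed by -0.52 ± 0.18 and -0.58 ± 0.25 (SE) over all 6 arrays.

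Matrix genes of cornea, tendon and cartilage, tissues in which Angptl7 is known, were lower by their means in 11 of 14 genes, where 56.2% of all genes were, and 0 passed over all 6 arrays. Their median was -0.22, and -0.36 without ascending replicate 3. Scx, a transcription factor of tendon, was 9.25, 9.25 and 8.87 in ascending replicates 1, 2 and 3, against 8.63, 8.82 and 8.67 in descending replicates 1, 2 and 3. It lay higher in ascending aorta without overlap, by 0.41 ± 0.12 (SE; adjusted p = 0.53 by limma, and adjusted p = 0.0209 without ascending replicate 3). Chad, a cartilage protein, went the other way, by -0.88 ± 0.36 (SE; adjusted p = 0.534 by limma), and by -1.35 without ascending replicate 3 (adjusted p = 0.00188 by limma). Thbs4 differed by -0.31 ± 0.14 (SE; adjusted p = 0.538 by limma), and by -0.47 without ascending replicate 3 (adjusted p = 0.0365 by limma). Lum, a corneal and dermal proteoglycan, differed by 0.31 ± 0.13 (SE). Without ascending replicate 3, 1 gene of the list was higher and 3 were lower among those that passed, where 4.68% of all genes passed.

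**Figure D4:**
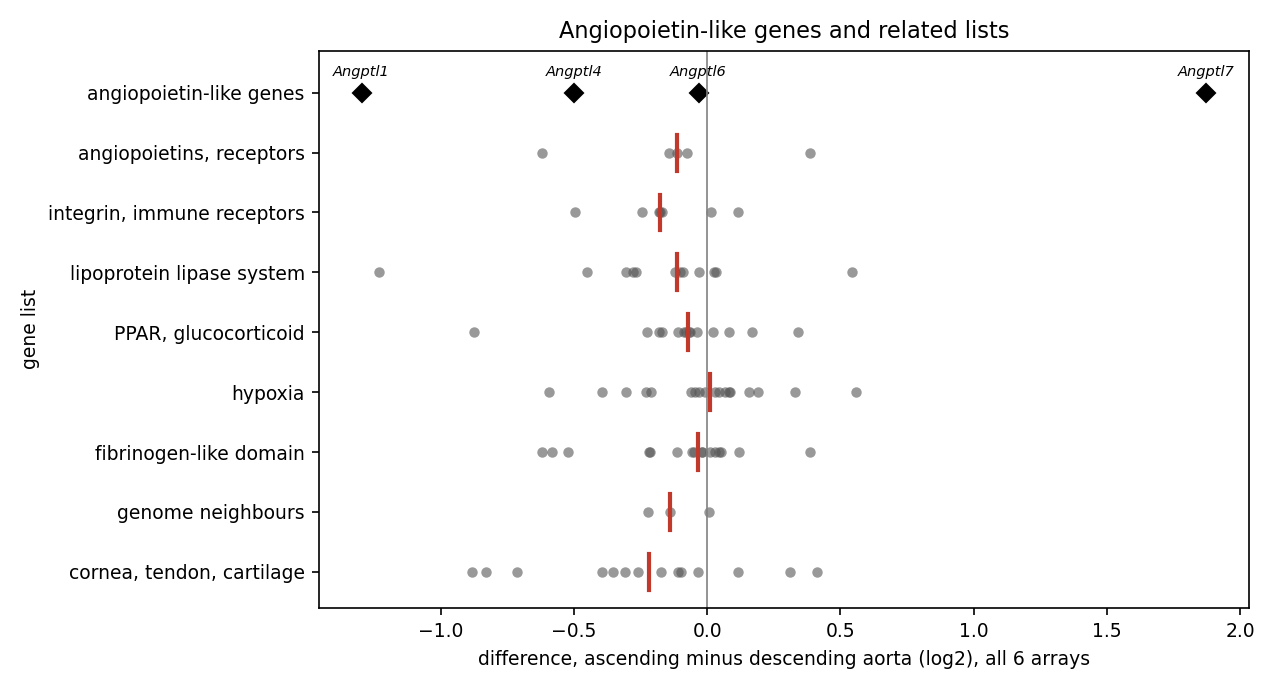
Difference between ascending and descending aorta (log2, all 6 arrays) of each measured gene, with the angiopoietin-like genes as black diamonds in the top row and related lists as grey points below. Red bars mark list medians, which lie between -0.22 and 0.010. Angptl7 at 1.87 lies to the right of every point of the related lists, which follows from its choice by this difference.

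Markers of other cell types also differed between the arrays. The 9 markers of mesothelium and epicardium averaged 10.1, 10.3 and 9.16 in ascending replicates 1, 2 and 3, against 8.71, 8.80 and 9.06 in descending replicates 1, 2 and 3. Of the 9, 8 had a higher mean in ascending aorta, where 43.8% of all genes did, and 5 lay higher without overlap, where 5.87% of all genes did. The median difference was 0.98, and 1.57 without ascending replicate 3, with Upk1b, Upk3b and Tcf21 at 1.94, 1.64 and 1.41 over all 6 arrays. The 12 cardiac muscle markers averaged between 8.55 and 9.27 in ascending and between 8.27 and 8.62 in descending aorta, with 12 of 12 means higher in ascending aorta and a median of 0.37. Of the 12, 3 lay higher without overlap, where 5.87% of all genes did. The differences ran from 0.044 for Nkx2-5 to 1.47 for Tnnt2. Myl7 and Myl4 of this list were highest on ascending replicate 3, at 9.93 and 9.74. By their averages both lists were highest on ascending replicates 1 and 2, the arrays on which Angptl7 was high. Their part in the Angptl7 values was not tested. The 7 cartilage markers had a median of 0.019, and 0.0045 without ascending replicate 3. The 7 valve and cushion markers went both ways, with a median of -0.023, and 0.018 without ascending replicate 3. Among them were Tbx20, the gene closest to Angptl7, at 1.86 (2.84 without ascending replicate 3) and Postn at -0.45.

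Endothelial markers averaged 10.45, 10.48 and 11.0 in ascending replicates 1, 2 and 3, against 11.3, 11.1 and 11.1 in descending replicates 1, 2 and 3. All 8 had a lower mean in ascending aorta (median -0.40), where 56.2% of all genes did. Of the 8, 4 lay lower without overlap, where 8.95% of all genes did. The differences ran from -1.68 for Emcn to -0.076 for Tek. Macrophage markers averaged 8.64, 8.10 and 9.18 in ascending replicates 1, 2 and 3, against 9.02, 9.10 and 8.99 in descending replicates 1, 2 and 3. All 6 had a lower mean in ascending aorta (median -0.31, and -0.58 without ascending replicate 3), where 56.2% of all genes did. Of the 6, 1 lay lower without overlap, where 8.95% of all genes did. Mrc1 and Cx3cr1 were highest on descending replicate 1. By their average the macrophage markers were lowest on ascending replicate 2 and highest on ascending replicate 3. Among the ascending arrays this is the order of Angptl4, and also of Angptl1 and Cd36. The 6 adipocyte markers averaged between 6.32 and 6.54 in ascending and between 6.58 and 6.67 in descending aorta. Of these, 3 had a higher and 3 a lower mean in ascending aorta, where 56.2% of all genes had a lower mean. Their median was -0.065, and the largest difference was that of Fabp4 at -0.88. The part of these cell types in the values of Angptl1 and Angptl4 was not tested. Of the 3 measured genes of crest-derived glia and neurons, all had a lower mean in ascending aorta (median -0.46), where 56.2% of all genes did. All 3 overlapped between the segments, and 0 passed.

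**Figure D5:**
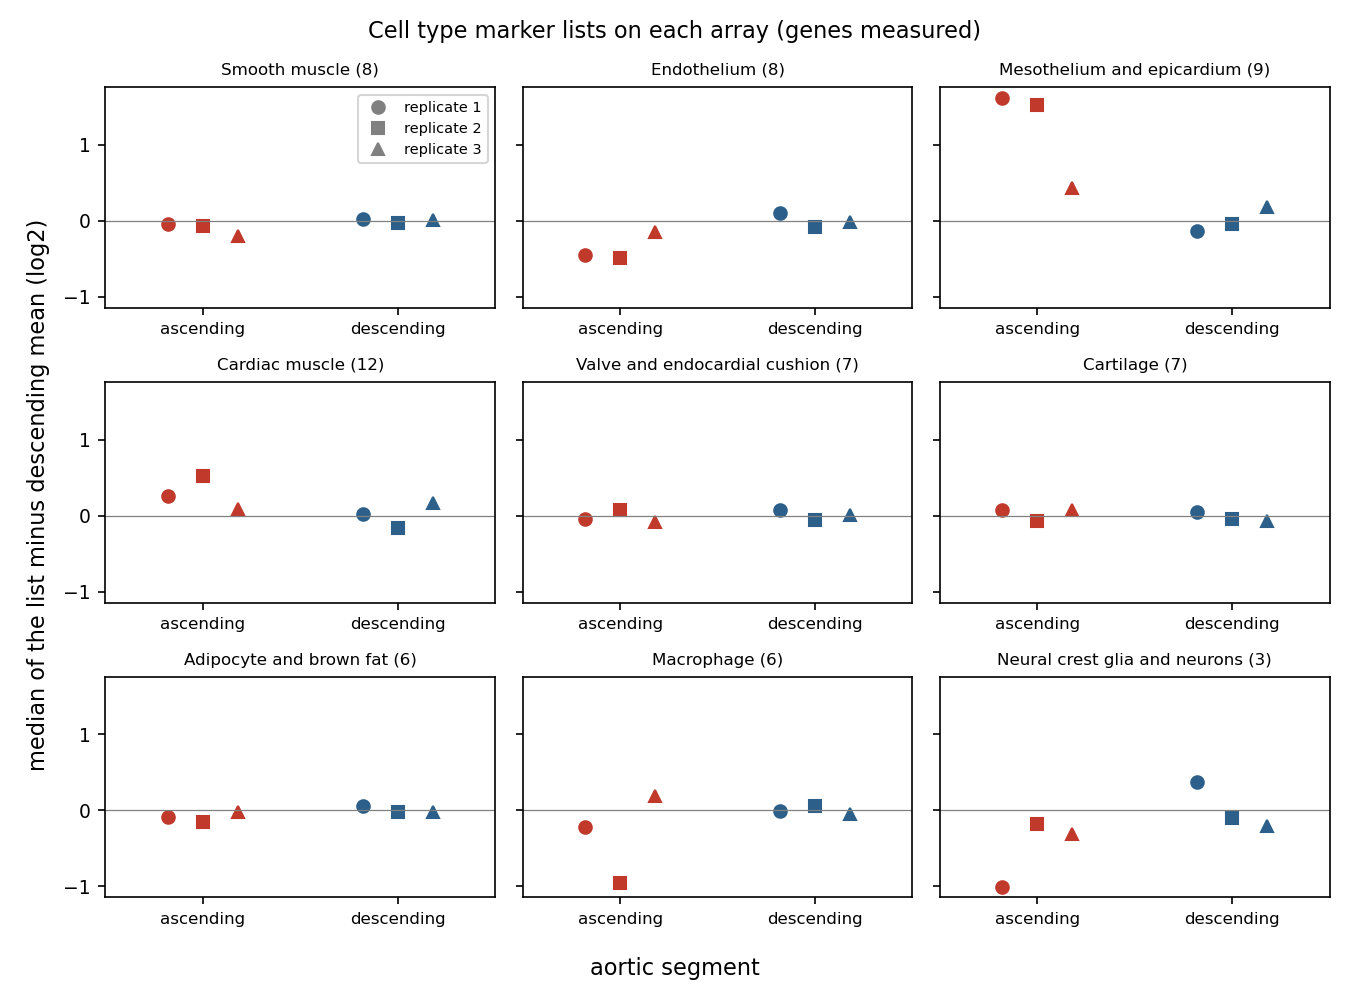
Median over the genes of each marker list of the level minus the descending mean (log2), for each array, with ascending aorta in red on the left and descending aorta in blue on the right of each panel. Marker shapes are replicate numbers and the number of measured genes stands in each title. The mesothelial list stands at 1.62 and 1.52 on ascending replicates 1 and 2 and at 0.44 on ascending replicate 3.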

How the data were processed

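Total RNA of ascending and descending aorta was isolated with Trizol, labelled as biotinylated cRNA and hybridised, 3 arrays per segment, per the labels' protocols. The deposited values are log2 expression per probe set, made by the authors with RMA, named with Partek 6.6 per the submitters' processing notes. The sources used here give no settings, genome build or annotation for this step. RMA equalises the arrays, which hides a change common to most genes, and it shrinks differences of dim genes. The number of arrays limits the precision.

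Of 35556 probe sets, 21789 had 1 gene symbol, 1621 several and 12146 none, by the platform annotation. The Entrez number matched RefSeq (GRCm38.p6) for 21698, and 0 symbols changed. For 999 genes with several probe sets the one with the highest mean was kept, which left 19938 genes with no filter on dim genes. Segments were taken from the sample titles and compared as ascending minus descending by limma 3.58.1 (lmFit, eBayes) in R 4.3.3, two-sided, without covariates, with Benjamini-Hochberg adjustment over all genes at 0.05. With 3 arrays against 3, a two-sided exact permutation test reaches 0.1 at best, so none was used. The fit was tested on simulated data. Tables, motif searches and plots were made with Python 3.11.15, pandas 2.3.3 and matplotlib 3.10.9.

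The members, lists, markers and alternatives were chosen with earlier results of these data known. Named genes were the members, the 10 profiles nearest to Angptl7 and 5 nearest to its mirror image, 3 for another member with a range of at least 1, and up to 4 genes per related list by unadjusted p. The profiles leave out small RNA genes, pseudogenes and transcripts without a proper name. Alternatives were other scalings, filters at the 25th and 50th percentile, the mean of a gene's probe sets, all probe sets, a robust variance trend, no moderation, array weights, a minimum difference of 1, the replicate number as a block, each array left out and a Pearson measure of likeness. Leaving out ascending replicate 3 with descending replicate 1 was added after the values were seen. The labels do not pair same-numbered arrays, so the numbers were not treated as pairs in the main fit. Same-numbered arrays did not deviate together, which does not exclude pairing.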

Additional observations from a re-analysis of the deposited data

How the results depend on the processing

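Over all 6 arrays 0 genes passed, and the count stayed at 0 under each other setting except that 933 passed without ascending replicate 3 and 469 without that array and descending replicate 1, so the counts with 1 array left out ran from 0 to 933. Of the related lists, the count of genes that passed was 0 to 11 with 1 array left out and 5 without both arrays. With 1 array left out, the difference ran from 1.30 to 2.91 for Angptl7, from -1.75 to -0.861 for Angptl1, from -0.93 to -0.151 for Angptl4 and from -0.0724 to 0.0287 for Angptl6. Of the 10 profiles closest to Angptl7, 7 to 10 were kept with 1 array left out, and 0 with the Pearson correlation, which ignores the size of the step. With the replicate number as a block 0 genes passed, and the difference of Angptl7 was 1.87 ± 0.64 (SE), against 0.77 without it. Deviations of same-numbered arrays from their group means correlated at -0.080, -0.055 and 0.024. Ascending replicate 3 shifts the ascending mean, and the labels name no embryo. Whether same-numbered arrays are pairs therefore cannot be told from these values.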

Other observations

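Ranked by Pearson correlation over the 6 arrays, among 842 genes with a range of at least 1, other genes came closest to Angptl7, each with a smaller step. Cth, an enzyme of cysteine synthesis, came first (r = 0.995), followed by Dipk1c (0.993), Chrm2, a muscarinic receptor of heart and smooth muscle (0.992), Krt19, a keratin of mesothelium and simple epithelia (0.992), and Mmp23, a matrix protease (0.991). Without ascending replicate 3 their differences, ascending minus descending, were 1.43 for Cth, 1.90 for Dipk1c, 1.99 for Chrm2, 1.72 for Krt19 and 1.04 for Mmp23, beside 2.91 for Angptl7. These genes were named by an alternative measure, the arrays fall into separate clusters, and the coefficients describe 6 arrays only.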
